A study of Mus musculus with 6 samples.

Results

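Thymosins, actins and the proteins that bind actin filaments or tie them to the cell cortex were followed through 10 genes, Tmsb4x, Tmsb10, Actb, Actg1, Pfn1, Cfl1, Tagln2, Ezr, Msn and Lgals1, selected by symbol from the 48967 genes with exonic counts. Tmsb4x and Lgals1 were listed because their counts dropped in delipidated embryos, so their values are given as a description with no test. The list was meant to set genes of the embryonic cortex against genes typical of somatic cells, but no such classes were compared here. Of the 10 genes, 9 passed the filter on low counts and were among the 16020 genes tested, and Tagln2 did not.

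The study asked how mouse embryos rebuild lipid droplets after these are taken out of the zygote. RNA was sequenced from wild-type F1 (C57Bl/10 X CBA/H) embryos at the 2-cell stage, labelled day 2, in 3 control and 3 delipidated libraries, each a pool of 3 embryos. Both groups were kept in KSOM free of fatty acids from 0.5 to 2.0 dpc. For delipidation, zygotes were spun at 4200 g and then at 9500 g, 10 min each, in medium with 50 µg/mL cytochalasin B, a drug that blocks actin polymerization, the zona pellucida was opened with a laser and the droplets were drawn off with a pipette. Control embryos are labelled as cultured from the zygote, but the text of the treatment is attached to all samples. Whether control zygotes met cytochalasin B or the spins is not given in the sources used here, so lipid removal, the drug and the handling cannot be told apart. Embryos of several females were mixed before they were allotted to the groups, and p-values therefore measure the spread between pools and not between animals.

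The counts assigned to genes were 12164963, 16165958 and 12980787 in control replicates 1, 2 and 3, and 20059460, 16332103 and 14683741 in delipidated replicates 1, 2 and 3. Values below are given in this order. At least 1 count was found for 22855, 22437 and 20582 genes in the controls and for 17091, 19408 and 20158 genes in the delipidated libraries, so every delipidated library held fewer genes than every control. Its part in counts of 0, such as those of Tmsb4x, Tagln2 and Vim, was not tested. Levels are in CPM, the usual scaling of counts to library size, here the total over the tested genes times the TMM factor. A read that covers several exonic parts was counted in each of them, so summed counts exceed the number of reads, and intervals based on them cover counting error only and are too narrow.

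The embryo label was checked against lists of marker genes. All 15 maternal oocyte transcripts and all 13 genes of 2-cell stage genome activation had counts in every library. The maternal list summed to 2653 ± 403 CPM (SD, n = 3) in control and 2849 ± 475 CPM (SD, n = 3) in delipidated embryos, with Dppa3 the most abundant at 1014 and 1065 CPM. The activation list summed to 431 ± 142 CPM (SD, n = 3) and 510 ± 119 CPM (SD, n = 3), led by Usp17lb at 94.9 and 148 CPM. The groups overlapped in the sum of both lists, but Usp17lb itself was higher in all delipidated than in all control libraries, with a log2 fold change of 0.64 (edgeR, unadjusted p = 0.0364, Benjamini-Hochberg adjusted p = 1.00).

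Markers of other cell types were also counted, and some moved with the groups. Sums without the most abundant gene of a list were formed after the data were seen. The 10 stromal genes summed to 27, 24 and 35.1 CPM in the control and 1.93, 14.7 and 18.9 CPM in the delipidated libraries, without overlap. This rested on Vim, since the other 9 genes had 14.2, 15.2 and 12.3 CPM against 1.93, 14.7 and 18.9 CPM and overlapped. Vim, an intermediate filament gene and the most abundant of this list, had 12.8, 8.77 and 22.8 CPM in the controls and 0 in each delipidated library, and Col1a1, Col3a1, Lum and Pdgfrb were also at 0 in all delipidated libraries, whereas Dcn was at 0 in all controls. Counts in every library were found for 1 of these 10 genes. The 12 leukocyte genes summed to 25.6, 17.8 and 17.3 CPM against 9.97, 11.2 and 15.7 CPM, again without overlap, but over genes past the filter on low counts they summed to 24.2, 17.3 and 13 CPM against 9.97, 11.2 and 14.1 CPM, and the groups overlapped. Without Coro1a the sums were 19.2, 14 and 14.1 CPM against 9.97, 6.08 and 13.8 CPM and did not overlap, so this separation depends on the genes taken. Coro1a led this list at 4.42 and 2.36 CPM, with overlap, 2 of the 12 genes had counts in every library, and Lyz2, Tyrobp and Adgre1 were at 0 in all delipidated libraries and Fcer1g in all controls. The 16 cumulus and granulosa genes summed to 8.02, 10.5 and 113 CPM in the control and 2.12, 9.77 and 12.4 CPM in the delipidated libraries. Over genes past the filter they summed to 3.97, 8.47 and 15.1 CPM against 0.839, 8.54 and 11.9 CPM, so the high value of control replicate 3 lay mostly on genes that did not pass it. It was 63.2 CPM without Cyp11a1, the most abundant of the list, with 4, 0 and 653 counts in the controls and 0 in each delipidated library, all on parts that carry the identifiers of overlapping genes. Of the 16 genes, 8 were at 0 in all delipidated and 3 in all control libraries. The 8 oviduct genes, 3 of which had counts in every library, summed to 274 ± 83.1 CPM (SD, n = 3) and 235 ± 49.6 CPM (SD, n = 3), with overlap, and Epcam led them at 138 and 152 CPM. Wfdc2 was at 0 in all libraries and Foxj1 in all controls. This list was not low, and without Epcam it had 126, 147 and 135 CPM against 79.6, 90.9 and 77.4 CPM, without overlap. Nearly all of its sum lay on the 3 genes past the filter, with 208, 366 and 246 CPM against 236, 283 and 182 CPM, which overlapped. Whether these transcripts came from oviduct cells or from the embryos was not tested. Cumulus cells had been taken off with hyaluronidase after the harvest. The part of such transcripts in the results that follow was not tested. Fewer cells of a type and less RNA per cell cannot be told apart in pooled embryos.

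Actin exists as free monomers and as filaments. Thymosins hold monomers in reserve, profilin hands them to growing filament ends, and cofilin severs old filaments and returns their subunits. Ezrin and moesin tie filaments to the plasma membrane, and in the early embryo this cortex carries the cleavage furrow and, later, polarity and compaction.

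Tmsb4x and Tmsb10 encode the thymosin beta proteins that bind actin monomers. Tmsb4x (ENSMUSG00000049775) is read from the reverse strand of chromosome X (GRCm38, 167207093 to 167209315) and has 8 exonic parts. Its counts were 53, 73 and 142 in control and 0, 3 and 0 in delipidated embryos, or 4.47, 4.41 and 10.8 CPM against 0, 0.184 and 0 CPM. The groups did not overlap, and control replicate 3 was the highest. Summed over each group, 268 counts stood against 3, a ratio of 109 after scaling with an exact 95% counting interval from 36.9 to 532, which describes counts chosen for their drop and is no test. All 3 counts lay on part 6, from 167207292 to 167207535, most of it behind the coding sequence, and the delipidated libraries had 0 counts on its coding part.

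Tmsb10 (ENSMUSG00000079523), on the reverse strand of chromosome 6 from 72957347 to 72958748, gave another picture. It was measured at 23.7, 23 and 42.5 CPM in the control and at 21.2, 26.1 and 19.6 CPM in the delipidated libraries. The groups overlapped, and control replicate 3 was the highest. The log2 fold change was -0.42 (SE 0.38; edgeR's quasi-likelihood test, unadjusted p = 0.299). Tmsb4x made up 15.9%, 16.1% and 20.3% of the counts of this gene pair in the control and 0%, 0.701% and 0% in the delipidated libraries.

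The 2 thymosin genes encode short proteins, and their coding sequences of 135 bases each can be compared whole, as in GENCODE M21 on GRCm38. They are identical at 95 bases, or 70.4%, and the 40 bases that differ are in capitals. They are shown because reads from one gene could be taken for the other only where they match.
Tmsb4x: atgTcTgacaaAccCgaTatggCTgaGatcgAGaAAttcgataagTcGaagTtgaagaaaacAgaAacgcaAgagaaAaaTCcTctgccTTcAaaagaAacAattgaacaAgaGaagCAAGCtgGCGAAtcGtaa
Tmsb10: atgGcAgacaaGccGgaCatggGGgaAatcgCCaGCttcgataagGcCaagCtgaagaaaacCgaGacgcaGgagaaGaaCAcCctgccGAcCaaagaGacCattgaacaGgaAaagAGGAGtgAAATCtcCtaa
Copies of at least 95% identity over 100 bases or more in 6 other annotated genes together cover the whole coding sequence of Tmsb10. For Tmsb4x 0 were found. Since reads that mapped to 1 place alone were counted, the level of Tmsb10 may be understated, and the 4 copies with exonic parts in the files had at most 1 count in any library.

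Actb and Actg1 encode the cytoplasmic beta and gamma actins, the main actins of non-muscle cells. Actb (ENSMUSG00000029580), on the reverse strand of chromosome 5 from 142903115 to 142906754, had 135, 169 and 294 CPM in the control and 220, 187 and 155 CPM in the delipidated libraries. The delipidated libraries fell inside the range of the controls, which was set by control replicate 3. Its log2 fold change was -0.09 (SE 0.29; edgeR's quasi-likelihood test, unadjusted p = 0.767), and the sign turned to 0.30 without control replicate 3 and to 0.03 without delipidated replicate 3.

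The high value of control replicate 3 sat mostly toward the 5′ end of Actb, a feature picked after its values were seen. Parts 1 to 6, the first exon from 142906652 to 142906754, had 8.27, 16.2 and 91.4 CPM in the control and 9.04, 17.6 and 19.3 CPM in the delipidated libraries. Coding parts held 63.8% of the Actb counts in control replicate 3 and between 81.5% and 88.2% in the other libraries. The first exon spans 103 bases in 6 short parts, on which control replicate 3 had 33, 211, 234, 234, 234 and 257 counts. A read over several of these parts was counted in each, so the size of this excess and the low coding share include multiple counts. Taken over coding parts alone, Actb was at 148 ± 36.4 CPM (SD, n = 3) in control and 159 ± 33.8 CPM (SD, n = 3) in delipidated embryos, a difference smaller than the spread within either group.

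Actg1 (ENSMUSG00000062825) lies on the reverse strand of chromosome 11 from 120345690 to 120348542. Its 433, 798 and 1429 control counts and 320, 513 and 569 delipidated counts correspond to 36.5, 48.3 and 109 CPM against 15.8, 31.5 and 40.2 CPM. The groups overlapped, since delipidated replicate 3 lay above control replicate 1. The log2 fold change was -1.15 (SE 0.46; edgeR's quasi-likelihood test, unadjusted p = 0.0296), and the p-value adjusted over all genes by the Benjamini-Hochberg method was 1.00. A fold change this low or lower was found for 7.88% of all genes tested. Without control replicate 3 it was -0.54 (edgeR, unadjusted p = 0.262), without delipidated replicate 1 it was -0.85 (edgeR, unadjusted p = 0.0892) and without delipidated replicate 2 it was -1.20 (edgeR, unadjusted p = 0.0515). Without control replicates 1 and 2 in turn it was -1.41 and -1.31 (edgeR, unadjusted p = 0.014 and 0.0309). Without delipidated replicate 3 it was -1.45 (edgeR, unadjusted p = 0.0149). On the part with most counts it was -1.91 (edgeR, unadjusted p = 0.00435). The unadjusted p in edgeR was 0.00872 with the replicate block and 0.000988 with no filter on low counts, and Actg1 was called in no setting. All exonic parts of Actg1 carry joined identifiers with the small RNA genes Gm23419 and Mir6935, and parts under a single identifier give no value for it.

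Within Actg1, the difference was uneven along the gene, as noted after the values were seen. Parts 23 to 26, the end of the coding sequence from 120346382 to 120346735, had 12.7, 19.4 and 22 CPM in the control and 1.73, 4.85 and 5.65 CPM in the delipidated libraries, without overlap. Parts 8 to 22 had 17.4, 27.9 and 78.4 CPM against 14.1, 25.6 and 33.3 CPM and overlapped. Of its 16 parts with at least 30 counts over all libraries, 4 lay lower in all delipidated than in all control libraries and 0 higher, where 4.68% of all such parts in the files were lower in this sense. Neighbouring parts share reads and are not independent.

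**Figure D1:**
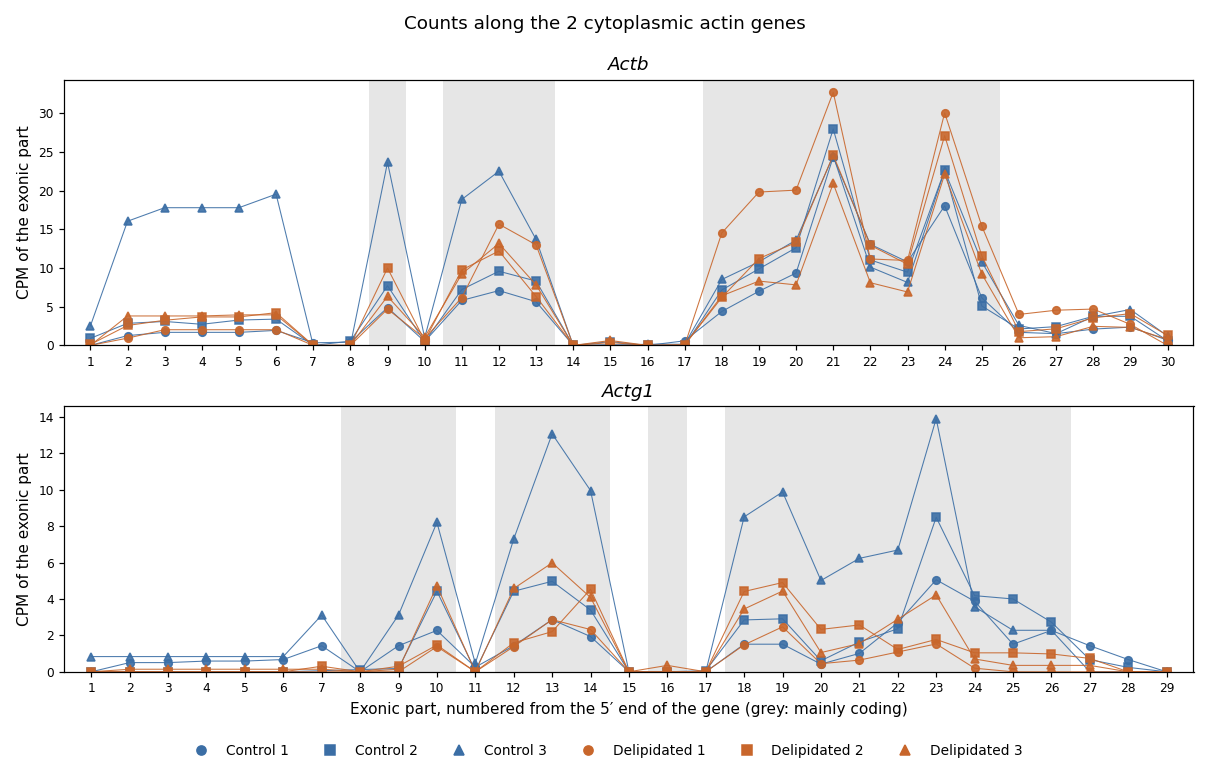
CPM on each exonic part of Actb (upper panel) and Actg1 (lower panel), numbered from the 5′ end, with 1 line per library, blue for control and orange for delipidated embryos, and grey shading for mainly coding parts. Control replicate 3 stands above the other libraries on parts 1 to 6 of Actb, and on parts 24 to 26 of Actg1 the control libraries lie above the delipidated libraries.

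Set against each other within a library, Actg1 made up 21.3%, 22.3% and 27% of the counts of the actin pair in the control and 6.70%, 14.4% and 20.5% in the delipidated libraries. The groups did not overlap in this share, which was formed after the values were seen. Over coding parts alone the shares were 20.4%, 25.4% and 34.8% against 7.53%, 16.3% and 23.5%, and delipidated replicate 3 then lay above control replicate 1. The coding sequences, 1128 bases in each gene, are identical at 1000 bases, or 88.7%. Their first 90 bases, from GENCODE M21 on GRCm38, hold 16 differences, in capitals, and are an example of where reads can tell the pair apart. The whole 1128 bases hold 128 differences, so this stretch is less alike than the whole.
Actb: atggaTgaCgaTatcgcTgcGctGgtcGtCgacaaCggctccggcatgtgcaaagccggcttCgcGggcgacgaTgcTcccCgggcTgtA
Actg1: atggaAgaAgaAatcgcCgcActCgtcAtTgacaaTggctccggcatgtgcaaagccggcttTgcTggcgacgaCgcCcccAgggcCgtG
Near-identical copies in 5 other annotated genes together cover the whole Actg1 coding sequence, and 0 were found for Actb. The counts of Actg1 in particular are therefore uncertain. Of these copies, Gm8399 had the most counts, with 0, 15 and 0 in the control and 10, 10 and 4 in the delipidated libraries.

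Pfn1, which encodes profilin, and Cfl1, which encodes cofilin, turn over actin filaments. Pfn1 (ENSMUSG00000018293; chromosome 11, reverse strand, 70651850 to 70654644) had 19.9, 39.9 and 32.1 CPM in the control and 22, 32.3 and 22.7 CPM in the delipidated libraries. All delipidated values lay within the control range, and the log2 fold change was -0.26 (SE 0.38; edgeR, unadjusted p = 0.515). Cfl1 (ENSMUSG00000056201; chromosome 19, forward strand, 5490455 to 5495201) was measured at 216, 269 and 256 CPM in the control and 280, 234 and 302 CPM in the delipidated libraries. It was the only gene of the list with a positive fold change, 0.14 (SE 0.20; edgeR, unadjusted p = 0.496), which is within the spread of the libraries. Parts that overlap Snx32 on the opposite strand held 23.6% of its counts, and 99.4% of its coding sequence has a near-identical copy, Gm6180.

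Tagln2, a transgelin that bundles filaments, was close to the limit of detection. Lying on the forward strand of chromosome 1 from 172500047 to 172507380 (ENSMUSG00000026547), it was counted 46, 1 and 57 times in control and 0, 5 and 0 times in delipidated embryos. Control replicate 2 fell among the delipidated libraries, so the groups overlapped. The ratio over the groups, 104 counts against 5, was 25.4 after scaling, with an exact 95% counting interval from 10.5 to 79.8 that leaves out the spread between libraries. With no filter on low counts, its adjusted p was 0.718 in edgeR and 0.377 in DESeq2. Fits with a library left out kept Tagln2 through its control counts alone and are not read.

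Ezr and Msn encode ezrin and moesin, the linkers between filaments and the plasma membrane. Ezr (ENSMUSG00000052397; chromosome 17, reverse strand, 6738041 to 6782784) had 40.2, 12.6 and 31.5 CPM in the control and 13.1, 19.6 and 31.1 CPM in the delipidated libraries, and the delipidated values lay within the control range. Its log2 fold change was -0.40 (SE 0.49; edgeR, unadjusted p = 0.429), and 8.05% of its counts lay on parts that overlap Sytl3 on the opposite strand. Msn (ENSMUSG00000031207; chromosome X, forward strand, 96096042 to 96168552) was at 13.8, 8.41 and 10.9 CPM against 5.48, 8.91 and 2.05 CPM. Delipidated replicate 2 was the library that made the groups overlap, and the log2 fold change was -1 (SE 0.63; edgeR, unadjusted p = 0.139). The share of Msn in the counts of the pair was 30.4% ± 8.29 (SD, n = 3) in control and 22.3% ± 14.0 (SD, n = 3) in delipidated embryos, with overlap. The coding sequences of Ezr and Msn are identical at 72.6% of the columns of their alignment, gaps included.

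Lgals1 encodes galectin-1, a sugar-binding protein of the cell surface and matrix that is abundant in many somatic cells. On the forward strand of chromosome 15 from 78926725 to 78930465 (ENSMUSG00000068220), it was counted 34, 146 and 108 times in control and 24, 2 and 7 times in delipidated embryos. In CPM these were 2.87, 8.83 and 8.21 against 1.19, 0.123 and 0.494, with all delipidated libraries below all controls. The ratio over the groups was 10.6, a description of counts chosen for their drop.

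**Figure D2:**
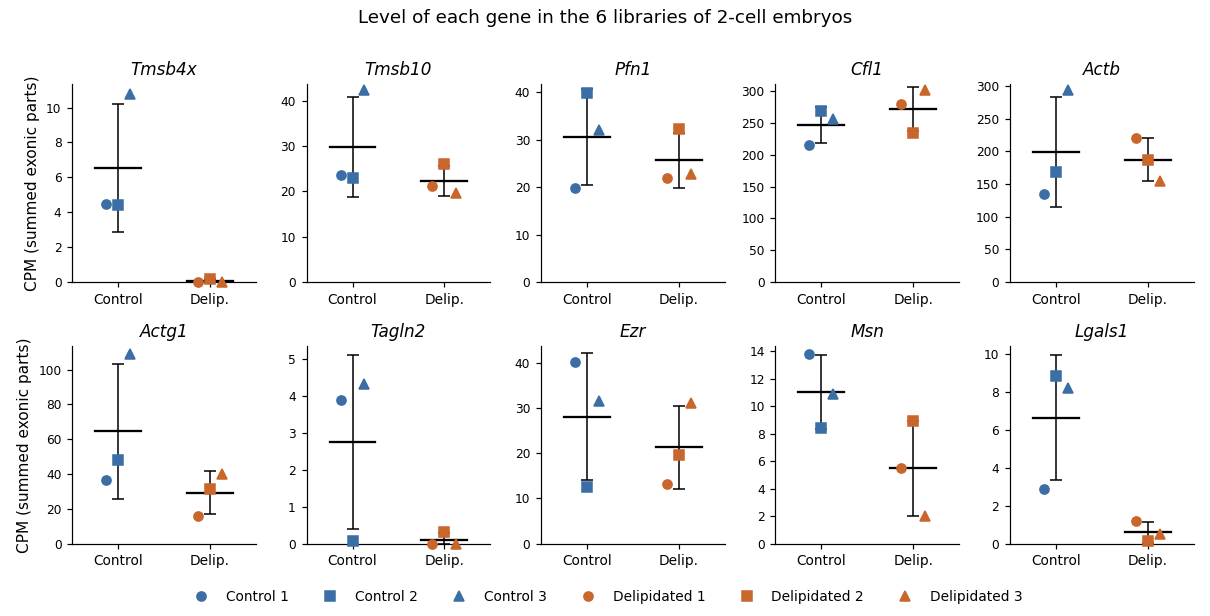
CPM of the 10 genes in each library, with points for libraries (circle, square and triangle for replicates 1, 2 and 3), a line for the group mean and bars for the SD (n = 3), each panel on its own linear axis from 0. Tmsb4x and Lgals1, listed for their drop, are the panels in which the groups do not overlap.

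Of the 7 genes with a test, which leaves out Tmsb4x and Lgals1, 6 had a lower and 1 a higher fold change, beside 50% of all tested genes with a lower one. Groups without overlap, delipidated lower, were seen for 2, Tmsb4x and Lgals1, beside 5.05% of all tested genes and the 5% that chance gives in each direction; both were listed for that drop and nothing is read from the count. Among the 7 genes, 1 had an unadjusted p under 0.05 in edgeR, Actg1, beside 2.89% of all tested genes in either direction, and 0 were called at an adjusted p under 0.05 with a log2 fold change beyond 1. The same call rule took 0 of the 16020 genes (0%), with 463 at an unadjusted p under 0.05; limma-voom also called 0, edgeR without the filter 5 higher and 25 lower, and DESeq2 without a filter 9 higher and 40 lower.

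Between genes, levels were compared as CPM per kb of exonic parts. Reads over several parts count in each, so genes cut into short parts are raised in this measure. Parts 6 to 8 of Cfl1, of 2, 6 and 2 bases, had 253, 258 and 261 of its 2563 counts in control replicate 1. In control embryos Cfl1 was the highest at 105 ± 11.7 CPM per kb (SD, n = 3), followed by Actb at 74.4 ± 31.3, with overlapping libraries. Actg1 at 25.7 ± 15.4 and Tmsb10 at 23.3 ± 8.65 came next and overlapped each other, while all Actb libraries lay above all Actg1 libraries. Pfn1 at 12.7 ± 4.18, Ezr at 8.54 ± 4.28, Lgals1 at 8.29 ± 4.10 and Tmsb4x at 4.78 ± 2.67 formed a row in which each overlapped the next, and Pfn1 lay below Tmsb10 without overlap. Msn at 1.74 ± 0.423 lay below Tmsb4x and overlapped Tagln2, the lowest at 1.32 ± 1.13. In delipidated embryos Cfl1, now without overlap with Actb, was at 115 ± 14.6, Actb at 70.0 ± 12.0, Tmsb10 at 17.5 ± 2.67 and Actg1 at 11.6 ± 4.92, while Tagln2 and Tmsb4x were last at 0.0492 ± 0.0852 and 0.0448 ± 0.0776 CPM per kb (SD, n = 3). Judged by the densest part of at least 100 bases, Cfl1 and Actb were still first in the controls, but the order of others turned. Tmsb10 at 81.8 ± 28.4 came before Actg1 at 48.7 ± 37.7 CPM per kb (SD, n = 3 each). Ezr at 40.6 ± 22.5 came before Pfn1 at 37.7 ± 4.76, and Msn at 16.5 ± 4.71 before Tmsb4x at 15.1 ± 4.07. Lgals1 was at 12.1 ± 7.07 CPM per kb (SD, n = 3).

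Promoter sequences, 250 bases before to 50 after the RefSeq start, were at hand on GRCm38.p6 for 8 of the 10 genes and not for Actb and Lgals1. They were searched on both strands for the CArG box, the site of serum response factor, for the TATA box sequence TATAAA, for the CCAAT box, for the GC box GGGCGG and for GGAATG, a site of TEAD factors. GGGCGG was found for 8 of 8 genes, where 35.7% of the 32851 promoters of this length hold it. A CArG box was found for Actg1 alone, at -90 from the start, and 1.63% of all promoters hold one. CCAAT was found for Actg1 and Cfl1 (37.4% of all promoters), GGAATG for Pfn1 and Tagln2 (14.7%) and TATAAA for 0 of 8 (13.6%). The 250 bases before the start are shown for Actg1 and Tmsb4x, on the reverse strand at chr11:120348496-120348745 and chrX:167209219-167209468, because the former holds the CArG box and the latter belongs to the gene with the fewest counts in delipidated embryos; all motifs found are in capitals, and the CArG box is the last but one of them in Actg1.
Actg1: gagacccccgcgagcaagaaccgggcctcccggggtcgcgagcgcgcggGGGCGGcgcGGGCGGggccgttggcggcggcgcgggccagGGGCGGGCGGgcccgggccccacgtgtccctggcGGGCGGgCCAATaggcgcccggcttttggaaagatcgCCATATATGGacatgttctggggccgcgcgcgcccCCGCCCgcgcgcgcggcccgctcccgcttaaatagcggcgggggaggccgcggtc
Tmsb4x: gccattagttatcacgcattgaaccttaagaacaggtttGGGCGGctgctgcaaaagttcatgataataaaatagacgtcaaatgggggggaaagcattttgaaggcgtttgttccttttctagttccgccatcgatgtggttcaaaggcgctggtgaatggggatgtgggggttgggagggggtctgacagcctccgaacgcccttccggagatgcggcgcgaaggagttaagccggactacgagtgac
A match is a description of letters and no evidence of binding.

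Other cytoskeleton genes were described through 11 lists by role with 153 genes, of which 151 were in the files and 122 were tested. The fold change was higher for 63 and lower for 59, or 48.4%, and the median on the log2 scale was 0.01. At an unadjusted p under 0.05 in edgeR there were 3 lower genes, or 2.46%, and 0 higher genes, beside 1.74% and 1.15% of all tested genes, and 0 were called. Groups without overlap were found for 9 lower genes, or 7.38%, and 8 higher genes, or 6.56%, beside 5.05% and 3.81% of all tested genes and the 5% that chance gives in each direction. Both directions together gave 13.9%, beside 8.86% of all tested genes and 10% by chance. The lists were not tested as sets.

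**Figure D3:**
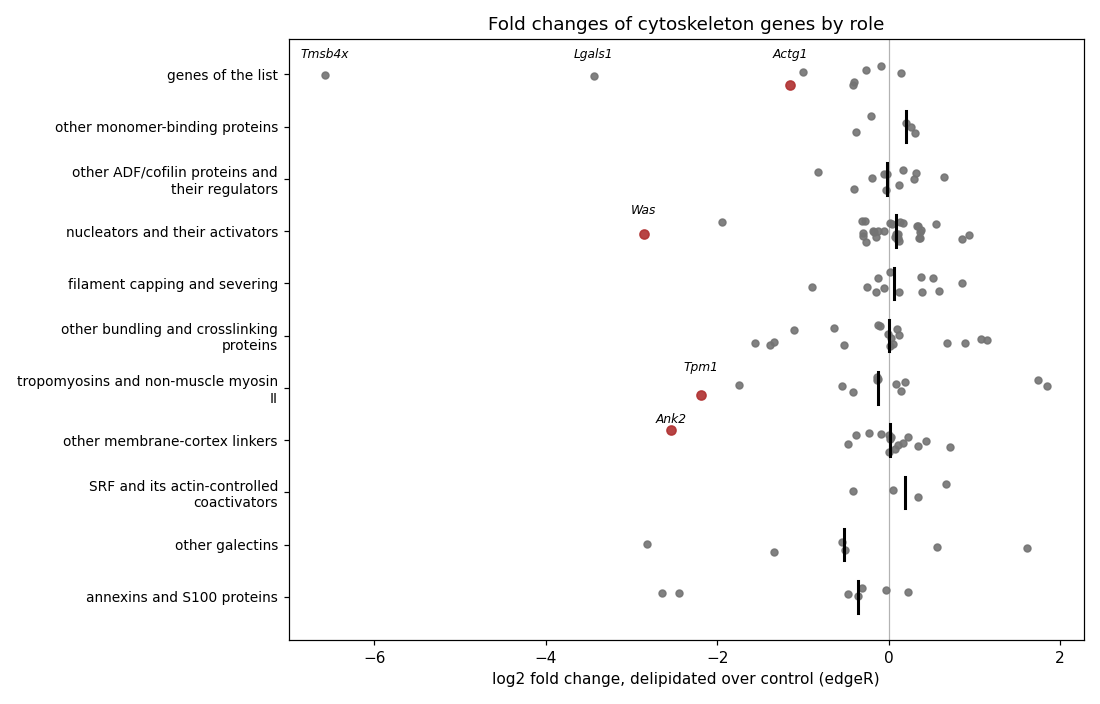
Log2 fold change (delipidated over control, edgeR) of each tested gene, 1 point per gene, in the list described and in 10 lists by role, with a black bar for the median of each role list and red points for an unadjusted p under 0.05. Named points are Tmsb4x and Lgals1, which have no test, and Actg1, Was, Tpm1 and Ank2; the medians of most lists lie near 0.

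Among the proteins that bind monomers, 5 of 11 genes were tested, 3 higher and 2 lower. Cap1, which frees cofilin from monomers, had 56.9 ± 9.24 CPM (SD, n = 3) in control and 68.2 ± 23.5 CPM (SD, n = 3) in delipidated embryos, and the profilin gene Pfn4 had 20.3 ± 3.83 and 15.6 ± 6.67 CPM (SD, n = 3 each). Both overlapped between the groups. The muscle actin genes Acta1, Acta2, Actc1 and Actg2 were too low to be tested, and Actg2, the highest of them, had a mean of 0.745 CPM in control and 0.0941 CPM in delipidated embryos.

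Of the cofilin family and its regulators, 5 genes were higher and 6 lower. Limk2, a kinase that inactivates cofilin, had 43.1, 60.4 and 37.6 CPM in the control and 91.3, 64.4 and 64.3 CPM in the delipidated libraries, without overlap (log2 fold change 0.64, SE 0.30; edgeR, unadjusted p = 0.0547). Tesk1, a related kinase, had 13.6, 16 and 14.5 CPM against 8.30, 8.78 and 7.69 CPM, also without overlap (log2 fold change -0.83, SE 0.45; edgeR, unadjusted p = 0.0916), and 33.1% of its counts lay on parts that overlap Cd72 on the opposite strand. Wdr1, which helps cofilin take filaments apart, was the highest of the list at 252 ± 103 and 247 ± 54.1 CPM (SD, n = 3 each). For Limk2 the unadjusted p went from 0.0244 in edgeR without control replicate 2 to 0.88 in edgeR on the part with most counts, where the log2 fold change was 0.06. For Tesk1 it went from 0.0491 in DESeq2 to 0.271 in edgeR on that part, and neither gene was called in any setting.

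Of the 31 nucleators and their activators, all tested, 19 were higher and 12 lower. Was, the activator of the Arp2/3 complex in blood cells, had 5.82, 3.57 and 6.99 CPM in the control and 0.691, 0.491 and 1.06 CPM in the delipidated libraries, without overlap. With delipidated counts of 14, 8 and 15, Was passed the filter on low counts only together with its controls, so its p is given as a description. Its log2 fold change of -2.86 (SE 0.91) had the smallest p of the role lists (edgeR, unadjusted p = 0.00895), and with each library left out it stayed between -3.19 and -2.63. Was is typical of leukocytes, and the part of such cells in its value was not tested. Nckap1, a subunit of the WAVE complex, was the highest at 620 ± 57.9 and 666 ± 122 CPM (SD, n = 3 each).

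Of the tropomyosins and the genes of non-muscle myosin II, 5 were higher and 7 lower. Tpm1, which coats and steadies filaments, had 4.47, 5.93 and 25.6 CPM in the control and 2.32, 2.95 and 2.61 CPM in the delipidated libraries, and control replicate 3 was far above the other controls. The log2 fold change was -2.19 (SE 0.75; edgeR, unadjusted p = 0.0137), or -0.99 without control replicate 3 (edgeR, unadjusted p = 0.282) and -1.61 on the part with most counts (edgeR, unadjusted p = 0.285). Rock1, a kinase that activates myosin, was the highest at 1406 ± 126 and 1298 ± 117 CPM (SD, n = 3 each), a difference within the spread.

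Of the other linkers of membrane and cortex, 9 were higher and 7 lower. Ank2, an ankyrin that links membrane proteins to spectrin, had 6.16, 6.59 and 2.66 CPM in the control and 0.395, 0.491 and 1.76 CPM in the delipidated libraries, without overlap. With delipidated counts of 8, 8 and 25, it passed the filter on low counts through its controls, so its p is given as a description. The log2 fold change was -2.54 (SE 1.00; edgeR, unadjusted p = 0.0269). With each library left out it lay between -3.52 and -2.18, with unadjusted p-values in edgeR up to 0.0934 without control replicate 2. On the part with most counts it was -1.33 (edgeR, unadjusted p = 0.473), and the replicate block in edgeR gave an unadjusted p of 0.0539. Epb41, a spectrin-binding protein, was the highest at 577 ± 77.9 and 649 ± 96.3 CPM (SD, n = 3 each), with overlap.

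The other lists held no gene with an unadjusted p under 0.05 in edgeR with the filter. Of filament capping and severing genes, 7 were higher and 5 lower, with Tmod2 at 23.7 ± 3.59 and 33.9 ± 5.52 CPM, Capza2 at 71.6 ± 4.58 and 93.7 ± 23.5 CPM and Eps8, the highest, at 137 ± 29.2 and 132 ± 27.3 CPM (SD, n = 3 each). Of bundling and crosslinking genes, 9 were higher and 9 lower, with a median log2 fold change of -0.00, or -0.45 on the part with most counts, and Lasp1 had 15.2 ± 7.95 and 7.09 ± 1.53 CPM, Fscn1 26.3 ± 14.3 and 9.99 ± 8.79 CPM and Cnn3, of whose counts 15.1% fell on parts shared with Gm42928 on the opposite strand, 232 ± 81.1 and 253 ± 58.8 CPM (SD, n = 3 each). The groups did not overlap for Tmod2 and Lasp1, nor for Lcp1, a plastin of leukocytes named after its values were seen, which had 3.88, 7.01 and 2.66 CPM in the control and 8.49, 9.83 and 10.4 CPM in the delipidated libraries. The unadjusted p of Fscn1 went from 0.00551 in edgeR without the filter to 0.295 in edgeR without control replicate 2. That of Lasp1 went from 0.0372 in DESeq2 to 0.504 in edgeR on the part with most counts, and neither gene was called in any setting. The genes of serum response factor and the coactivators that actin monomers hold back were tested in 4 of 6 cases, and Mrtfa had 17.9 ± 3.23 and 28.4 ± 8.23 CPM, Mrtfb 89.2 ± 33.0 and 92.6 ± 21.7 CPM and Vcl, a target, 74.8 ± 12.6 and 55.9 ± 7.98 CPM (SD, n = 3 each). Of these, Vcl was lower in all delipidated than in all control libraries, and 9.19% of its counts fell on parts shared with Ap3m1 on the opposite strand.

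Galectins other than Lgals1 had a median of -0.53 on the log2 scale over 6 tested genes, 2 higher and 4 lower, but the median was 0.02 at a mean count of at least 50 and -0.05 on the part with most counts, and leaving out a library gave values between -0.91 and -0.26. Lgals3 had 0.253, 2.60 and 1.90 CPM in the control and 8.39, 2.83 and 3.39 CPM in the delipidated libraries, all above the controls. With control counts of 3, 43 and 25, Lgals3 passed the filter on low counts through its delipidated libraries, so its p is given as a description. Lgals4 had 7.85, 0.0605 and 6.84 CPM against 0, 0.123 and 1.98 CPM. Lgals8 was the highest at 8.46 ± 3.97 and 12.4 ± 5.93 CPM (SD, n = 3 each). Unadjusted p-values were 0.137 for Lgals3 and 0.127 for Lgals4 in edgeR. Lgals4 had an unadjusted p of 0.0303 in edgeR without the filter. Without delipidated replicate 3, it was at -6.22 in place of -2.82, a size set by the delipidated counts of 0 and 2 that remained. It passed the filter there through its control counts, and the p of that fit is not read. Lgals3 was at 0.96 in place of 1.61 without delipidated replicate 1, so both values depend on single libraries. Annexins and S100 proteins had a median of -0.36 over 7 tested genes, 1 higher and 6 lower, which ranged from -0.75 without control replicate 2 to 0.18 without control replicate 3 and was 0.02 on the part with most counts. This list had Anxa11 at 1.55 ± 0.862 and 0.282 ± 0.489 CPM, S100a10 at 2.80 ± 2.92 and 0.447 ± 0.774 CPM and Anxa7, the highest, at 312 ± 103 and 364 ± 72.0 CPM (SD, n = 3 each). The groups did not overlap for Anxa11, which passed the filter on low counts through its controls, so its p is given as a description. Both Anxa11 and S100a10 had 0 counts in delipidated replicates 1 and 2, and their unadjusted p-values were 0.218 and 0.225 in edgeR. Fits without delipidated replicate 3 kept both genes through their control counts alone and are not read. The median over all genes tested was -0.00.

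The genes whose log2(CPM + 1) was most like that of Tmsb4x over the 6 libraries, among 8127 genes with a mean of at least 10 CPM, were Plekhb1 (Pearson r = 0.988), Magt1 (r = 0.987) and Polr2b (r = 0.986). For Lgals1 they were Lrp1b (r = 0.998), Ist1 (r = 0.984) and Hras (r = 0.981). All counts of Lrp1b lay under joined identifiers, and 16.4% of those of Ist1 on parts that overlap Pkd1l3 on the opposite strand. Tmsb4x and Lgals1 had r = 0.902 with each other. All 6 genes were lower in all delipidated than in all control libraries, Magt1 with 14.3, 11.9 and 17 CPM against 5.73, 6.82 and 6.64 CPM and Polr2b with 209, 216 and 269 CPM in the control and 155, 168 and 153 CPM in the delipidated libraries. With 6 points in 2 groups, such values mostly restate the group difference, and they carry no test.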

How the data were processed

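RNA was measured in 3 control and 3 delipidated libraries, made with a stranded kit for total RNA. According to the submitters' notes, bcl2fastq 2.20, Trimmomatic 0.36, STAR 2.5.2b, featureCounts and the mm10 build were used. The count files deposited by the authors hold unique hits for 425461 exonic parts per library; the coordinates are those of GRCm38, and names, exons and coding sequences were taken from GENCODE M21. Parts were added up per gene. Of 33309 parts under joined identifiers, 27968 were assigned to the 1 gene whose exons they overlap and the rest, holding 2.49% to 2.57% of the counts of a library, were left out. Reads across parts add to each of them. Strand was not used to separate genes on opposite strands.

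To compare the groups, edgeR 4.0.16 was run in R 4.3.3. Low counts were filtered by filterByExpr (minimum 10, minimum total 15), libraries were scaled by TMM, group was the only term of the quasi-likelihood test, and p-values were adjusted over all 16020 tested genes by the Benjamini-Hochberg method. Standard errors of log2 fold changes were taken from the fold change and the root of its F value. CPM were computed from these library sizes. The design of 3 against 3 allows no exact two-sided permutation p under 0.1. Genes were called at an adjusted p under 0.05 and a log2 fold change beyond 1. Parts were taken as coding if at least 50% of their bases are coding, and parts with under 30 counts were left out of counts of parts. Ratios of low counts have exact binomial intervals at 95%.

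The members and lists were chosen with earlier results of these data known. A further role list was taken out after its values were seen, for a reason unrelated to them, and is in none of the totals. Named genes are all members, the genes of each role list with an unadjusted p under 0.05 or otherwise the 2 with the smallest p, the gene of each role and marker list with the highest mean CPM, and the 3 genes with a mean of at least 10 CPM most like Tmsb4x and Lgals1. Other features are marked as picked after their values were seen. No protein table was used, so identity was computed between coding sequences of principal transcripts instead.

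Alternatives were a mean count of 50 or more, no filter, DESeq2's size factors, library sizes without mitochondrial and rRNA genes, DESeq2 1.42.0 with no filter, limma-voom (limma 3.58.1), the replicate number as a block, each library left out, parts with a single identifier, the part with most counts, the densest part for levels per length, marker sums over genes past the filter and, chosen after seeing the data, without the most abundant gene. The script was tested on simulated data. The spread between libraries of a group, as the common biological coefficient of variation, was 0.663 in the main fit. With 3 libraries per group, a gene that was not called may still differ. Tables were made with Python 3.11.15.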

Additional observations from a re-analysis of the deposited data

How the results depend on the processing

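The replicate numbers did not pair the libraries, as deviations of same-numbered libraries from their group means had correlations of -0.0836, 0.0698 and 0.0428 over 16020 genes. With the numbers as a replicate block, edgeR called 0 genes higher and 0 lower, 154 and 252 genes had an unadjusted p under 0.05, and Actg1 had a log2 fold change of -1.09.

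DESeq2, run without a filter, called 9 genes higher and 40 lower, 437 and 904 genes had an unadjusted p under 0.05, and 2 members other than Tmsb4x and Lgals1 were among them. With no filter in edgeR the numbers were 5 and 25 called, 379 and 835 under 0.05, and 2 members. Both alternatives fitted 30967 genes and shifted the median log2 fold change over all genes fitted to -0.17 and -0.18, but left it at 0.01 and -0.00 over the 16020 genes. With the part with most counts, 176 genes were lower at an unadjusted p under 0.05 and the log2 fold change of Tmsb4x was -7.78, a size set by the fit, since that part had 0 delipidated counts. With parts under a single identifier, 0 such members had a p under 0.05, since Actg1 has no value there. A mean count of at least 50 left no value for Tmsb4x.

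With each library left out in turn, genes with an unadjusted p under 0.05 numbered 155 to 300 higher and 219 to 693 lower, and members other than Tmsb4x and Lgals1 among them 0 to 2. These members were Actg1 and Tagln2. Tagln2 was counted without control replicate 2, beside Actg1, and without delipidated replicate 2, where Actg1 was not under 0.05. It passed the filter there through its control counts alone, so its part in these counts is not read. The log2 fold change ranged from -9.64 to -5.98 for Tmsb4x, the former also against 0 counts, from -4.41 to -2.96 for Lgals1 and from -0.29 to 0.30 for Actb, whose sign turned without control replicate 3 (0.30) and without delipidated replicate 3 (0.03). Cap1 turned from 0.26 to -0.01 without delipidated replicate 1, and its values ranged from -0.01 to 0.49. The cause of these changes was not tested. The other tested members kept the sign of their fold change in every alternative that gave a value.

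Counts of 0 to 5 in the delipidated libraries limit what can be said of Tmsb4x and Tagln2. Of the values for members and gene counts, 182 were labelled the same, 24 moved and 2 reversed, and of the others 447, 30 and 1. The label allows a factor of 1.5 for a count, 1 SD for a value without a test, and any size for a tested fold change that kept its sign and call, so values under it can differ.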
